A study of Mus musculus with 6 samples.

Results

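The aryl hydrocarbon receptor genes described here are Ahr, which encodes the receptor, its dimerisation partner Arnt, its repressor Ahrr, and the target genes Cyp1a1, Cyp1b1, Tiparp and Nqo1. They are 7 of the 22180 genes that the array measured with a probe set assigned to 1 gene symbol alone. For each gene the probe set with the highest mean over the 6 arrays was taken; Tiparp had 2 probe sets and the other 6 genes had 1 each. The set was chosen by the level of Ahr, which an earlier look at these data had shown to be higher in cells given medium with placental growth factor, so its own levels are given as a description with no test. The other 6 genes were listed for what they are known to do, and the question asked of them was whether they moved with Ahr.

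The cells were CD4+ T cells taken from mouse spleen with magnetic beads, and their RNA was read on Affymetrix whole-transcript arrays. All of them were activated through CD3 and CD28 with antibodies at 1 µg/ml, for 12 hours, in RPMI medium with 10% serum. The group PlGFCM received medium conditioned by HEK-293 clones, a human embryonic kidney line, that overexpressed PlGF2, a form of placental growth factor. The group ConCM received control conditioned medium, and IL6_ConCM received the same control medium with IL-6 at 20 ng/ml. Each group had 2 arrays. Strain, age and sex of the mice are not given in the labels, nor whether the 2 samples of a group are separate mice or cultures. The p-values therefore reflect the spread between these samples alone, partly pooled over genes, and that spread may be technical. What PlGFCM holds besides the growth factor was not measured, and unstimulated cells were not analysed here.

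AhR is a transcription factor of the bHLH-PAS family that is switched on by small molecules such as dioxins and breakdown products of tryptophan. Without a ligand it is held in the cytoplasm by Hsp90 and co-chaperones. With one it enters the nucleus, pairs with Arnt and binds DNA at a short core, GCGTG. Cyp1a1, Cyp1b1, Tiparp and Ahrr are its classic direct targets, and the products of Ahrr and Tiparp in turn damp its activity. In T cells Ahr transcripts are known to be most abundant in Th17 cells, the helper cells that make IL-17, and the receptor supports their production of IL-22.

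Promoter windows are shown for a repressor and a pair of targets to set the binding core beside the values that follow. RefSeq windows on build GRCm38.p6, from 250 bases before to 50 bases after the gene start, were found for 6 of the 7 genes, all but Ahr. The core was searched as GCGTG on the gene's strand and CACGC for the opposite strand. It occurred in 5 of the 6 windows, those of Ahrr, Cyp1a1, Cyp1b1, Tiparp and Arnt, where 32.4% of all 32851 windows hold it. Arnt is listed here as the partner and not as a target, and the window of the target Nqo1 held no copy. Sequence outside these windows was not searched. Ahrr held 3 copies, at 107, 82 and 27 bases before its start, and 3.91% of all windows hold at least 3. Cyp1a1 held 1 copy at 54 bases before its start, and Tiparp 1 on the opposite strand at 170 bases before. A match of these letters is a description of the sequence and not a measured binding site. The windows below run 5′ to 3′ on the gene's strand with the core in capitals.
Ahrr, chr13:74292282-74292581, minus strand: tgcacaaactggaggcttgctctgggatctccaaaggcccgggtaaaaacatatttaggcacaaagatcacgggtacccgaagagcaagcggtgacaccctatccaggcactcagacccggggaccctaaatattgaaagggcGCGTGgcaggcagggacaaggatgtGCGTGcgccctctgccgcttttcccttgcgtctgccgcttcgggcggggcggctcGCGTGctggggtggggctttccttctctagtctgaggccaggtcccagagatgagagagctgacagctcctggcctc
Cyp1a1, chr9:57697363-57697662, plus strand: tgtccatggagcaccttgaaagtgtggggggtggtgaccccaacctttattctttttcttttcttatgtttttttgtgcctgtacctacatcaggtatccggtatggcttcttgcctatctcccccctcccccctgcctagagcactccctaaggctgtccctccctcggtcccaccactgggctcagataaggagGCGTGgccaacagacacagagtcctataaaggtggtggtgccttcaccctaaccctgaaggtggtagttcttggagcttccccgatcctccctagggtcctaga
Tiparp, chr3:65528197-65528496, plus strand: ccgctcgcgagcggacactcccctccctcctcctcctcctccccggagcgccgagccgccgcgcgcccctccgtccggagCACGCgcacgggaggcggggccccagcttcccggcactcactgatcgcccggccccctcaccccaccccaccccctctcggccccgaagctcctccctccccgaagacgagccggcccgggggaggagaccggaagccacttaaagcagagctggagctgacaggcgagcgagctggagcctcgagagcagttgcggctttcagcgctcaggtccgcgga

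The arrays were alike: Pearson's r across genes, which do not count as replicates, lay at 0.994 to 0.995 for pairs within a group and 0.993 to 0.995 between groups. The defining T cell genes were high on every array, with a mean log2 level over the 7 measured of 8 listed T cell markers, Cd3e and Cd4 among them, of 10.53 to 10.74. The replicate 2 array of PlGFCM stood apart in a sex-linked transcript. Xist had a log2 level of 8.38 there and of 3.58 to 3.95 on the remaining 5. That array also had the lowest, but still high, levels of 3 Y-linked transcripts, with Uty at 7.502, Kdm5d at 7.07 and Eif2s3y at 8.59, against a lowest value on the others of 7.77, 7.42 and 8.90. For this reason the PlGFCM differences of the 7 genes, and of the list genes that passed, are also given without that array.

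Ahr was highest in PlGFCM and lowest in ConCM. Its log2 level was 7.70 and 7.72 in the ConCM samples, 7.84 and 8.20 in the IL6_ConCM samples, and 8.56 and 8.57 in the PlGFCM samples. The 3 groups did not overlap, and the replicates lay close together in ConCM and PlGFCM but apart in IL6_ConCM. The group means were 7.71 ± 0.02 (SD, n = 2) in ConCM, 8.02 ± 0.26 in IL6_ConCM and 8.56 ± 0.0031 in PlGFCM. PlGFCM was thus 0.85 log2 units, or 1.81-fold, above ConCM, and 0.54 above IL6_ConCM. Without the PlGFCM array with high Xist the first difference was again 0.85. IL6_ConCM was 0.31 above ConCM, a gap little wider than the SD of its own replicates, and that difference was 0.13 without IL6_ConCM replicate 2 and 0.49 without IL6_ConCM replicate 1. In bulk RNA such as this, more cells of a type and more RNA per cell cannot be told apart.

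**Figure D1:**
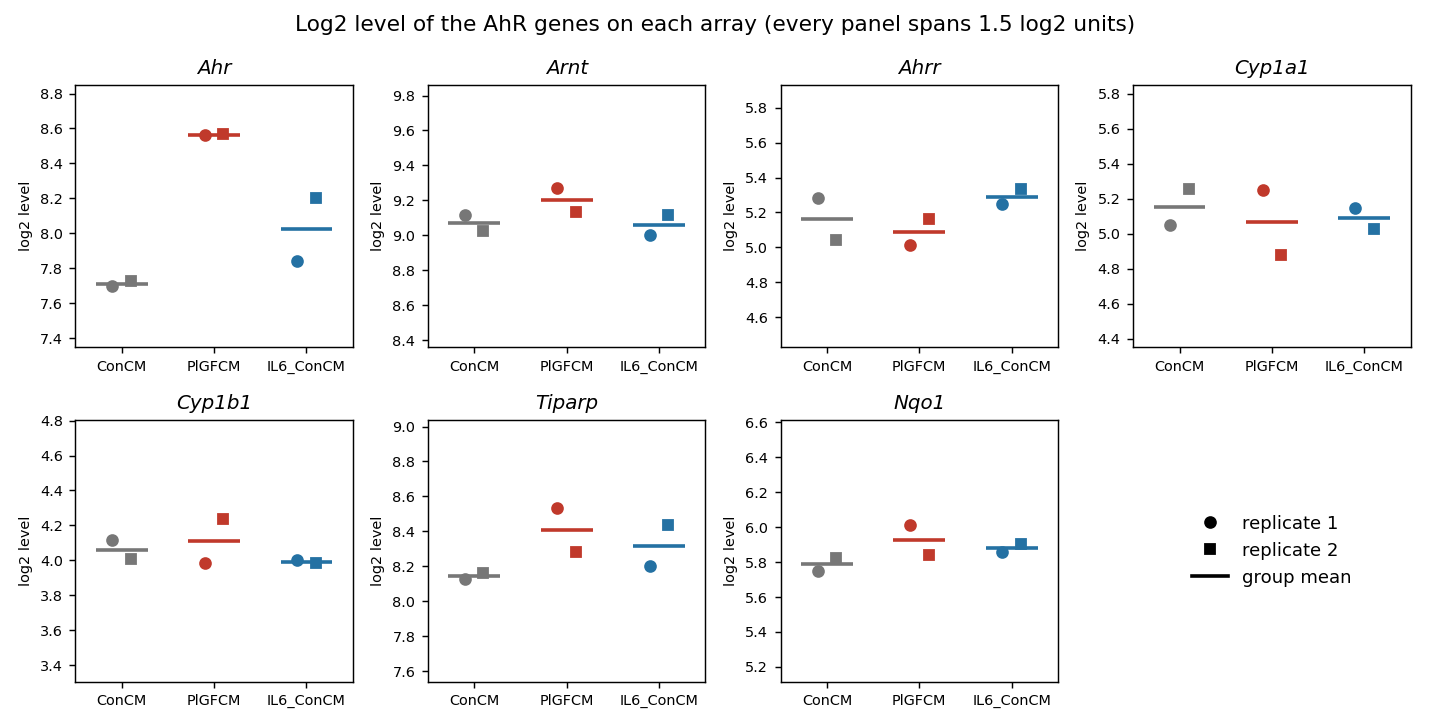
Log2 level (vertical axis) of each of the 7 genes on each of the 6 arrays, by group; circles are replicate 1, squares replicate 2, and bars the group mean, and every panel spans the same range of log2 units. The Ahr samples of PlGFCM, at 8.56 and 8.57, sit above all other arrays, while the groups of Ahrr and of Cyp1a1 overlap.

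Myeloid cells are another known source of Ahr, and the mean of their markers was slightly higher in PlGFCM. This mean log2 level over the 8 listed myeloid markers, all of them measured, was 6.36 and 6.24 on the PlGFCM arrays, 6.11 and 6.10 on the ConCM arrays and 6.14 and 6.12 on the IL6_ConCM arrays. None of the 8 passed in any comparison. Of all genes 0.433% passed in PlGFCM against ConCM, 0.113% in IL6_ConCM against ConCM and 0.0316% between PlGFCM and IL6_ConCM. Cd14, the lipopolysaccharide co-receptor of monocytes, was at 6.95 and 6.91 in PlGFCM against 6.25 and 6.26 in ConCM (limma adjusted p = 0.0806), the largest difference of the 8. Adgre1, Lyz2, Mpeg1 and Cd68 stood at 0.38, 0.31, 0.30 and 0.10, and Itgam, Fcgr1 and Csf1r at -0.15, -0.05 and -0.04. Of the 7 measured B cell markers 1 passed, Ms4a1, which fell by 0.84 log2 units in PlGFCM against ConCM (limma adjusted p = 0.0125). Cr2, Cd79b, Pax5 and Cd79a stood at 0.47, 0.33, 0.31 and 0.22, Blnk at 0.0005 and Cd22 at -0.02. No measured marker of CD8 T and NK cells, dendritic cells or stromal and endothelial cells passed in any comparison. Among them Cd8b1 lay at 7.81 to 8.31 on the 6 arrays. The part of myeloid or other cells in the Ahr level was not tested.

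None of the partner, the repressor and the targets passed in PlGFCM against ConCM. A gene was said to pass, and to rise or fall, where limma's p, adjusted by Benjamini-Hochberg over all 22180 genes, was under 0.05. By that rule 0 of the 6 genes passed, where 96 of all genes (0.433%) did. At an unadjusted p under 0.05 the count was 1 of 6, Tiparp, where 8.74% of all genes reached it. Without the PlGFCM array with high Xist that group has 1 array and few genes of any kind passed, so only the differences of the 6 genes are given for it below. With all arrays the median log2 difference of the 6 genes was 0.09, against -0.01 over all genes tested. Each gene has 3 residual degrees of freedom, to which limma adds a median of 8.14 prior degrees of freedom. These come from the spread of all genes, with a trend on intensity, and the p-values and intervals use both. With so few arrays, a p that misses the threshold does not show that a gene was the same in both media. The 95% interval of each difference is therefore given.

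Tiparp encodes a mono-ADP-ribosyltransferase that AhR induces and that feeds back on it. Its log2 level was 8.13 and 8.16 in ConCM, 8.20 and 8.44 in IL6_ConCM and 8.54 and 8.28 in PlGFCM. Both treated groups lay above ConCM without overlap, and they overlapped each other. The difference of PlGFCM from ConCM was 0.26 log2 units, or 1.20-fold, with an interval of 1.02-fold to 1.42-fold. Its limma p was 0.0338 before and 0.511 after adjustment over all genes. Over 15 alternative fits that difference stayed positive, between 0.14 and 0.39, with adjusted p from 0.361 to 0.910. It was 0.39 without the PlGFCM array with high Xist and 0.14 without the other PlGFCM array. IL6_ConCM differed from ConCM by 0.18 (adjusted p = 0.981). The second, dimmer probe set of Tiparp gave 0.04 for PlGFCM and -0.07 for IL6_ConCM against ConCM. It lay at 3.73 to 3.86 on the 6 arrays, below the 5.48 that is the median of all probe sets, and its interval for PlGFCM, -0.27 to 0.35, contains the 0.26 of the brighter probe set.

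Cyp1a1 and Cyp1b1, the cytochrome P450 enzymes that oxidise many AhR ligands, did not pass and had no higher mean in PlGFCM beyond the spread of its samples. Cyp1a1 had a log2 level of 5.05 and 5.26 in ConCM, 5.15 and 5.03 in IL6_ConCM and 5.25 and 4.88 in PlGFCM. All groups overlapped, and the highest mean was that of ConCM. PlGFCM differed from ConCM by -0.09 log2 units, or 0.94-fold, with an interval of 0.74-fold to 1.19-fold (limma adjusted p = 0.929). Cyp1b1 was at 4.12 and 4.01 in ConCM, 4.001 and 3.98 in IL6_ConCM and 3.99 and 4.24 in PlGFCM. Its PlGFCM samples overlapped both other groups and IL6_ConCM lay below ConCM without overlap, and PlGFCM against ConCM stood at 1.04-fold, with an interval of 0.82-fold to 1.30-fold (adjusted p = 0.958). Without the PlGFCM array with high Xist the sign of both turned, to 0.10 for Cyp1a1 and -0.08 for Cyp1b1.

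Ahrr, whose product competes with AhR for Arnt and for the same DNA core, had its lowest mean in PlGFCM. The gap to ConCM was within the spread of the samples. The log2 level of Ahrr was 5.28 and 5.04 in ConCM, 5.25 and 5.33 in IL6_ConCM and 5.01 and 5.16 in PlGFCM. PlGFCM overlapped ConCM and lay below IL6_ConCM. The difference of PlGFCM from ConCM was -0.07 log2 units, or 0.95-fold, with an interval of 0.77-fold to 1.17-fold (limma adjusted p = 0.937). That of PlGFCM from IL6_ConCM was -0.20 (adjusted p = 0.998). Without the PlGFCM array with high Xist the difference from ConCM was -0.15. With any 1 array left out it ran from -0.19 to 0.0449.

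Nqo1, a quinone reductase that answers to AhR and to the antioxidant factor NRF2, was at 5.75 and 5.82 in ConCM, 5.86 and 5.90 in IL6_ConCM and 6.01 and 5.84 in PlGFCM. Both treated groups lay above ConCM without overlap and overlapped each other. PlGFCM against ConCM stood at 0.14 log2 units, or 1.10-fold, with an interval of 0.92-fold to 1.32-fold (limma adjusted p = 0.801). Arnt, the partner that AhR shares with the hypoxia factors, was at 9.11 and 9.02 in ConCM, 9.003 and 9.12 in IL6_ConCM and 9.27 and 9.13 in PlGFCM. PlGFCM lay above both other groups, which overlapped. Its difference from ConCM was 0.13 log2 units, or 1.10-fold, with an interval of 0.97-fold to 1.25-fold (adjusted p = 0.709). Without the PlGFCM array with high Xist the difference from ConCM was 0.23 for Nqo1 and 0.21 for Arnt.

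Among the 6 genes, PlGFCM did not overlap ConCM for 3, Tiparp, Nqo1 and Arnt, all of them higher, where 17.3% of all genes were higher without overlap and 38.2% did not overlap in either direction. For Cyp1a1, Cyp1b1 and Ahrr no pair of neighbouring group means was further apart than the larger of their SDs. Ahr, Arnt, Tiparp and Nqo1 had a mean level at or above 5.48, the median of all probe sets, and Ahrr, Cyp1a1 and Cyp1b1 lay below it. The table has no detection calls, so whether these 3 transcripts were above background was not tested, and a true change in a transcript near background can be understated on an array. The interval of Cyp1a1 reached 1.19-fold at its upper end and that of Ahrr 1.17-fold, as measured by their probe sets.

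**Figure D2:**
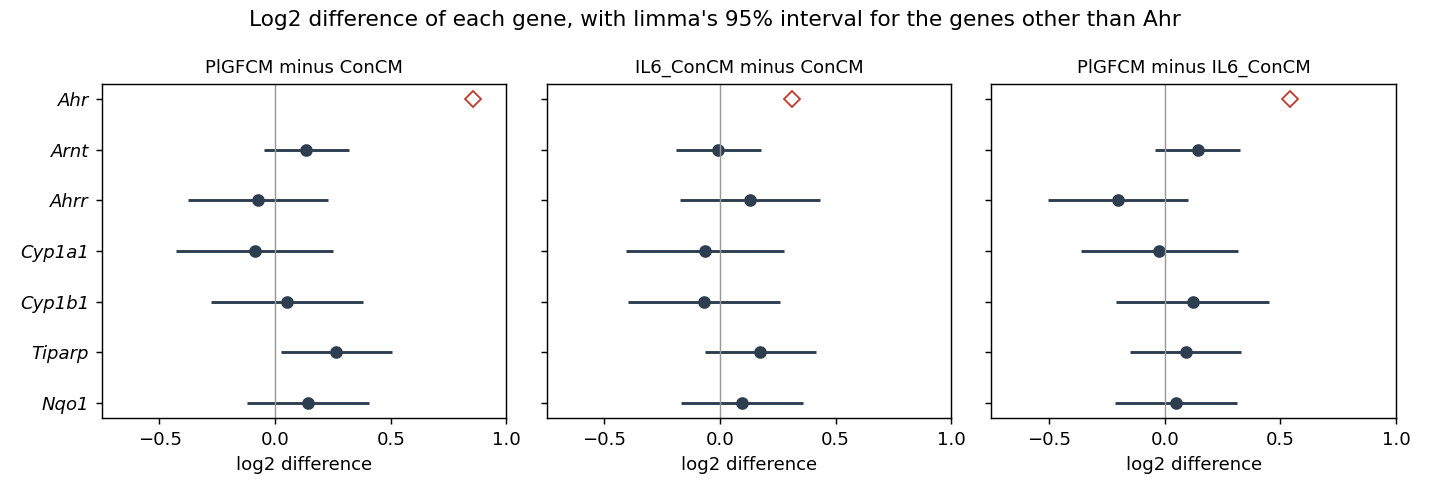
Log2 difference (horizontal axis) of each gene in the 3 comparisons; points are limma estimates and lines their 95% intervals, and Ahr is an open diamond with no interval because its rise chose the set. The PlGFCM interval of Tiparp lies above 0 before adjustment and those of the other 5 genes cross it.

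With IL-6 in the control medium 0 of the 6 genes passed against ConCM by limma, where 25 of all genes (0.113%) did. At an unadjusted p under 0.05 the count was also 0 of 6, where 5.62% of all genes reached it. Tiparp at 0.18 and Ahrr at 0.13 log2 units had the largest positive differences, and Cyp1b1 and Cyp1a1 stood at -0.07 each. Their intervals were 0.96-fold to 1.33-fold for Tiparp, 0.89-fold to 1.35-fold for Ahrr, 0.76-fold to 1.20-fold for Cyp1b1 and 0.75-fold to 1.21-fold for Cyp1a1. Nqo1 stood at 0.09 and Arnt at -0.01. The median of the 6 was 0.04, against -0.01 over all genes. These differences share the ConCM arrays with those of PlGFCM and are not independent of them.

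Set directly against each other, PlGFCM and IL6_ConCM differed by limma's adjusted p in 0 of the 6 genes, where 7 of all genes (0.0316%) passed. At an unadjusted p under 0.05 the count was 0 of 6, where 4.37% of all genes reached it. The differences ran from -0.20 for Ahrr to 0.14 for Arnt, and Tiparp stood at 0.09, with an interval of 0.90-fold to 1.26-fold.

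The genes whose pattern over the 6 arrays was most like that of Ahr are given as a description. Likeness was Pearson's r with the log2 level of Ahr over the 6 arrays, among 1010 genes with a mean at or above 5.63, the median over genes, and a range of at least 0.5 log2 units. The partner, repressor and target genes had ranges of 0.26 to 0.41 and so could not enter this ranking. The 5 highest were Elk3, an ETS transcription factor, Gatm, the first enzyme of creatine synthesis, the cytokine gene Il10, Akap13, a scaffold protein, and Lpxn, a paxillin relative, with r from 0.981 to 0.987. Gatm, for example, was at 6.08 and 6.06 in ConCM, 6.36 and 6.59 in IL6_ConCM and 7.14 and 7.03 in PlGFCM. That these genes share the order of the arrays with Ahr follows from how they were picked. Tiparp had r = 0.795, Arnt 0.751, Nqo1 0.710, Cyp1b1 0.261, Ahrr -0.287 and Cyp1a1 -0.315. Since the 2 PlGFCM arrays set most of the range of Ahr, a high r says mainly that a gene was high on both.

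**Figure D3:**
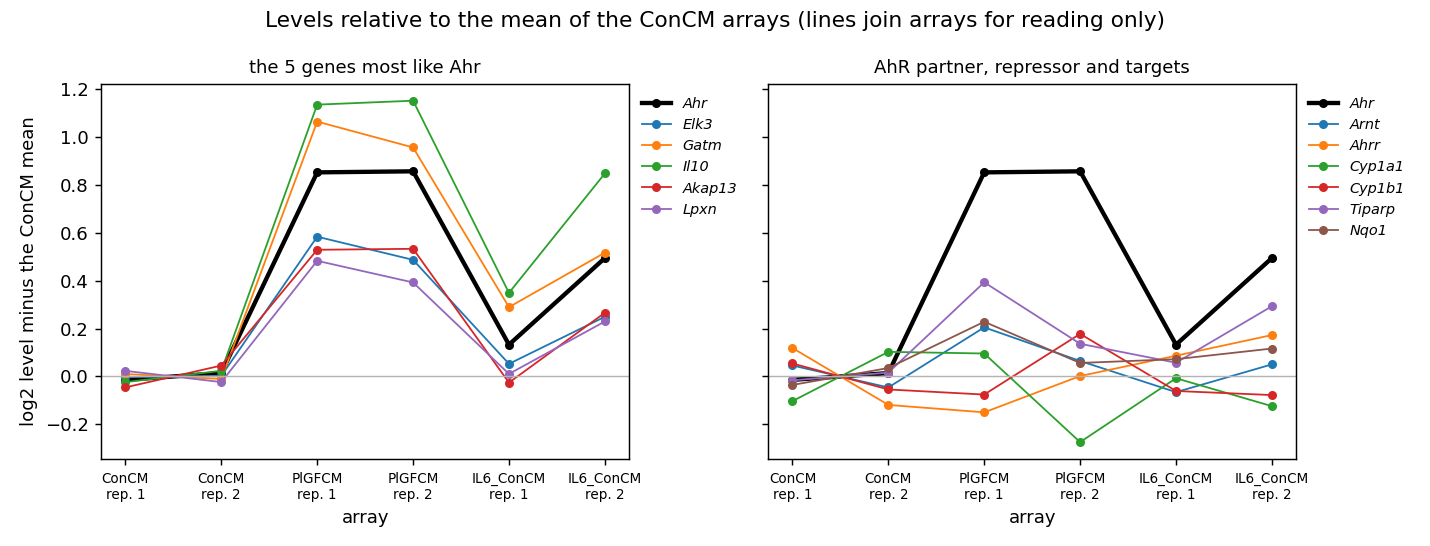
Log2 level minus the ConCM mean (vertical axis) on each array for Ahr in black with the 5 genes most like it on the left and with its partner, repressor and targets on the right; lines join the arrays for reading only. On the left all genes step up on the 2 PlGFCM arrays, and on the right Tiparp does so in part and Cyp1a1 and Ahrr do not.

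Genes linked to AhR in T cells did include some that changed. Of 17 measured of 18 listed genes, 3 rose in PlGFCM against ConCM, 1 fell and 13 did not pass, where 0.352% of all genes rose and 0.0812% fell. By limma's unadjusted p under 0.05, 8 of the 17 were higher and 1 was lower, where 930 and 1008 of all 22180 genes were. The median difference was 0.26 log2 units. The 4 changes that passed are known from earlier results of the same arrays and the list was drawn up with them in view. Its counts beside the shares of all genes are therefore a description and no test. Il10 had a log2 level of 5.96 and 6.01 in ConCM, 6.33 and 6.83 in IL6_ConCM and 7.12 and 7.14 in PlGFCM. PlGFCM exceeded ConCM by 1.14 ± 0.15 (SE; limma adjusted p = 0.00908). Maf, a transcription factor that can act with AhR on Il10, rose by 0.85 from 7.31 and 7.62 to 8.41 and 8.23, and Il17f, a Th17 cytokine gene, rose by 1.04. Gzmb, the cytotoxic protease granzyme B, fell from 9.09 and 8.88 to 8.23 and 8.13. Without the PlGFCM array with high Xist the differences were 1.13 for Il10, 1.13 for Il17f, 0.95 for Maf and -0.75 for Gzmb, against -0.81 for Gzmb with all arrays. None of the 4 kept its call in every fit with 1 PlGFCM or ConCM array left out. Such a fit leaves 1 array in a group and few genes of any kind passed in it. The 4 calls therefore rest on both arrays of each group.

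Il22, the cytokine gene most closely tied to AhR in T cells, was looked up after the values had been seen. Its log2 level was 4.15 and 4.25 in ConCM, 4.10 and 3.997 in IL6_ConCM and 4.41 and 3.60 in PlGFCM. The PlGFCM samples spanned both other groups, and IL6_ConCM lay below ConCM without overlap. PlGFCM differed from ConCM by -0.20 log2 units, with a 95% interval from -0.69 to 0.29 (limma adjusted p = 0.868). All of these levels lay below 5.48, the median of all probe sets. Whether Il22 was above background was not tested, so the lack of a rise says little about it. In IL6_ConCM against ConCM 0 of the 17 genes passed by limma, where 0.113% of all genes did. Of the 17, 3 were higher at an unadjusted p under 0.05, where 2.62% of all genes were, with a median difference of 0.06.

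Other genes that AhR induces in liver, skin or blood cells did not pass. Of 9 measured of 12 listed, 0 passed in PlGFCM against ConCM by limma, where 0.433% of all genes did. At an unadjusted p under 0.05 1 was higher, where 4.19% of all genes were. A negative difference was seen for 6, where 11889 of all 22180 genes had one, and the median was -0.03. Ptgs2, the inducible cyclooxygenase, had the smallest p, with log2 levels of 10.12 and 9.82 in ConCM and 10.25 and 10.37 in PlGFCM (adjusted p = 0.398). Socs2, a feedback inhibitor of cytokine signalling, stood at 0.26 (adjusted p = 0.605), Serpinb2 at 0.27 (adjusted p = 0.722) and Slc7a5, a carrier of large amino acids such as tryptophan, at -0.25 (adjusted p = 0.609). The mean log2 level of Serpinb2 was 3.71, below 5.48, the median of all probe sets. In IL6_ConCM against ConCM 0 of the 9 passed as well, where 0.113% of all genes did. There 1 was higher at an unadjusted p under 0.05, where 2.62% of all genes were.

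Genes for the proteins that hold AhR or work with it on DNA did not pass. Of 10 measured of 13 listed genes for its chaperones and cofactors 0 passed in PlGFCM against ConCM by limma, where 0.433% of all genes did, and the median was 0.07. At an unadjusted p under 0.05 1 was higher, where 4.19% of all genes were. That was Ncoa1, a coactivator, at 0.29 (limma adjusted p = 0.325). The cofactors Ep300, Nrip1 and Cul4b stood at 0.16, 0.14 and 0.11. Other members of the bHLH-PAS family had a median of 0.0003, with 0 of 12 passing and 1 higher at an unadjusted p under 0.05, against the same shares of all genes. The hypoxia factor Hif1a, which competes for Arnt, stood at 0.21 (adjusted p = 0.447), and the clock factor Arntl at 0.19, while Hif3a and Npas4 stood at -0.22 and -0.18.

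Enzymes that act on tryptophan or on its products, some of which are AhR ligands, did not pass either. Of 11 measured of 12 listed, 0 passed in PlGFCM against ConCM by limma, where 0.433% of all genes did, and the median was 0.05. The listed gene without a measurement was Il4i1. At an unadjusted p under 0.05 1 was higher, where 4.19% of all genes were. Ido1, the inducible first enzyme of tryptophan breakdown, had log2 levels of 6.06 and 5.98 in ConCM, 6.08 and 6.22 in IL6_ConCM and 6.33 and 6.76 in PlGFCM. Its difference of 0.52 between PlGFCM and ConCM had a limma adjusted p of 0.232. Afmid stood at 0.15, Ido2 at 0.17 and Kyat3 at -0.18.

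Of 11 measured genes of the NRF2 antioxidant response, which shares Nqo1 with AhR, 10 had a positive difference in PlGFCM against ConCM, where 10291 of all 22180 genes did. By limma 0 of the 11 passed, where 0.433% of all genes did. At an unadjusted p under 0.05 the count was 3, all higher, where 4.19% of all genes were, and the median was 0.12. Hmox1, the heme oxygenase, stood at 0.27 (adjusted p = 0.308), Slc7a11, the cystine carrier, at 0.63 (adjusted p = 0.325), Gsr at 0.18 and Txnrd1 at 0.13. Slc7a11 had log2 levels of 4.78 and 5.15 in ConCM and 5.92 and 5.28 in PlGFCM. Its mean of 5.20 lay below 5.48, the median of all probe sets, and its difference was 0.45 with the mean of all its probe sets.

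Signalling through the IL-6 receptor and STAT3 is known to raise Ahr in developing Th17 cells. Of 8 genes of that response 2 rose in PlGFCM against ConCM, Il6ra, a chain of the receptor, by 0.41 and Socs3, a feedback inhibitor, by 0.49, where 0.352% of all genes rose. All 8 were positive with a median of 0.25, where 10291 of all 22180 genes were positive. By limma's unadjusted p under 0.05, 7 of the 8 were higher, where 4.19% of all genes were. This list too was drawn up with earlier results of these arrays known, so its counts are a description. Whether this signalling raised Ahr here was not tested. Socs3 was at 9.37 and 9.21 in ConCM, 9.61 and 9.76 in IL6_ConCM and 9.87 and 9.69 in PlGFCM. Both lost the call on removal of any 1 of the 4 PlGFCM and ConCM arrays, which leaves 1 array in a group. The differences stayed between 0.37 and 0.45 for Il6ra and between 0.40 and 0.59 for Socs3. These differences were 0.37 for Il6ra and 0.59 for Socs3 without the PlGFCM array with high Xist. Bcl3 and Batf stood at 0.34 (adjusted p = 0.0806) and 0.29 (adjusted p = 0.322). In IL6_ConCM against ConCM 0 of the 8 passed by limma, where 0.113% of all genes did. Of the 8, 4 were higher at an unadjusted p under 0.05, where 2.62% of all genes were.

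**Figure D4:**
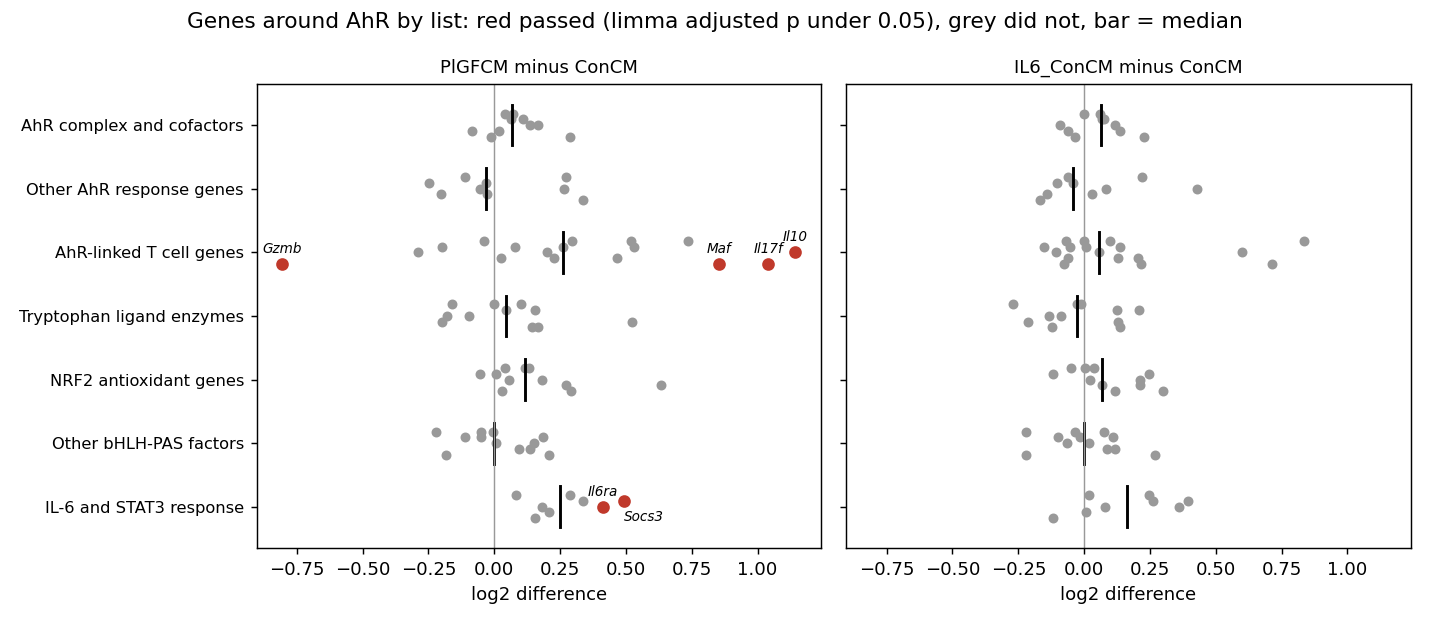
Log2 difference (horizontal axis) of the 78 measured genes on the 7 lists around AhR, for PlGFCM minus ConCM and IL6_ConCM minus ConCM; each point is a gene, red points passed and black bars are list medians. The red points in PlGFCM minus ConCM are Il10, Il17f, Maf, Gzmb, Il6ra and Socs3. With IL-6 Il17f stood at 0.71, Il6ra at 0.36 and Socs3 at 0.40 without passing. Between PlGFCM and IL6_ConCM 0 of the 78 genes passed, where 0.0316% of all genes did.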

How the data were processed

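The deposited table holds 41345 probe sets with a log2 level for each of the 6 arrays. The submitters' processing notes name Transcriptome Analysis Console as the program by which the authors made these log2 values; its settings, version and build were not given in the sources used here. That the scale is log2 was inferred from the range of the values. The platform annotation gives 23521 probe sets with 1 symbol and 1814 with several, which were left out, and 16010 are unnamed here. The brightest probe set per gene left 22180 genes, with no filter on low levels.

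All 3 contrasts came from 1 fit on the 6 arrays by lmFit, then eBayes with a trend on intensity (limma 3.58.1, R 4.3.3). Benjamini-Hochberg adjustment was made over all genes. With 2 arrays a group, the smallest two-sided p of an exact permutation test is 0.333. The genes and lists were chosen with earlier results of these data known. The text names the 7 genes, all list genes that passed, up to 4 per list by smallest p in PlGFCM against ConCM, and the 5 genes most like Ahr. Il22 and the marker genes were named besides. Arrays give no read depth, so their number limits the precision. Alternatives are given in the closing section.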

Additional observations from a re-analysis of the deposited data

How the results depend on the processing

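In none of the 15 fits with another normalization, probe set rule, prior, set of arrays or block did any of the 6 genes other than Ahr pass in any comparison; at an unadjusted p under 0.05, 1 did in PlGFCM against ConCM and 0 in the other comparisons. The Ahr difference stayed positive in each of these fits, from 0.83 to 0.87 for PlGFCM against ConCM, from 0.13 to 0.49 for IL6_ConCM against ConCM and from 0.36 to 0.72 for PlGFCM against IL6_ConCM. The number of all genes that passed in PlGFCM against ConCM, 96, was 174 when genes below the median level were left out (Ahrr, Cyp1a1 and Cyp1b1 among them, which then have no value), 6 without an intensity trend, 62 with the replicate block, 1938 unadjusted and 12 to 107 with 1 array left out. In IL6_ConCM against ConCM, 25 became 53, 1, 16, 1247 and 2 to 41 under the same settings, 12 with the arrays of the compared groups and 47 with array weights. In PlGFCM against IL6_ConCM, 7 became 0 without a trend, 969 unadjusted and 0 to 5 with 1 array left out.

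Of the 78 list genes, 6 passed in PlGFCM against ConCM, which became 0 without a trend, 3 with the replicate block, 23 unadjusted and 0 to 6 with 1 array left out. In IL6_ConCM against ConCM 0 became 12 unadjusted and 0 to 1 with 1 array left out. In PlGFCM against IL6_ConCM 0 became 1 after quantile normalization, without the genes below the median level or with the replicate block, Gzmb in each case, and 13 unadjusted. Maf, Il6ra and Socs3 lost their calls with the replicate block (adjusted p = 0.0545, 0.055 and 0.075), and Socs3 also after subtraction of array medians (0.0538) or with the mean of all probe sets (0.0667). Labels share replicate numbers, but the deviations of same-numbered samples correlated at -0.039, 0.111 and 0.033 between groups, so the numbers were not taken to pair samples.

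Signs turned for small differences that had not passed. With 1 array left out, PlGFCM minus ConCM ran from -0.19 to 0.0449 for Ahrr, -0.27 to 0.10 for Cyp1a1, -0.0755 to 0.18 for Cyp1b1 and -0.3675 to 0.0047 for Npas4. IL6_ConCM minus ConCM ran from -0.0654 to 0.0504 for Arnt, -0.17 to 0.0371 for Cyp1a1 and -0.20 to 0.0469 for Gzmb, and PlGFCM minus IL6_ConCM from -0.0388 to 0.22 for Tiparp, -0.038 to 0.13 for Nqo1, -0.21 to 0.16 for Cyp1a1 and -0.0064 to 0.25 for Cyp1b1. The other probe set of Tiparp turned IL6_ConCM minus ConCM to -0.066. The cause of these changes was not tested.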
